A study of Mus musculus with 4 samples.

Results

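To examine how surface proteins that stage T-cell development responded to the release of a Notch block, 10 genes were followed in Beko cells, namely Cd4, Cd8a, Cd8b1, Cd5, Cd2, Cd44, Kit, Thy1, Cd27 and Cd28. They were chosen by name as classical surface markers of thymocyte stages, with earlier results of these data known. All were found among the 24391 genes of the count table. Beko is a mouse leukemia line of pre-T character, which the labels call progenitor T-cells. Both libraries of the first group (GSI) came from Beko cells kept for 48 h in the γ-secretase inhibitor DAPT. Both libraries of the second group (washout) came from Beko cells that had the same 48 h of inhibitor, were then washed and stayed in culture for another 24 h. The labels give the dose of DAPT as 10 mg/ml, whereas the methods give it as 10 μg/ml, and the inhibitor was renewed once, after a wash at 24 h. All cells of both groups had therefore been exposed to the inhibitor, and no library of cells that were washed and cultured on in its presence was analysed here. The release of the inhibitor, the second wash and the additional culture time cannot be told apart in this comparison.

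Thymocytes are staged by what they carry on their surface. The earliest progenitors display the stem cell factor receptor Kit and the hyaluronan receptor Cd44 and lack both coreceptors, later Cd4 and the Cd8 chains appear together, and Cd5, Cd2, Cd27 and Cd28 accompany the signals of the pre-T-cell receptor and the T-cell receptor. Notch1 is a receptor that instructs the T lineage. It is cleaved by γ-secretase, and the freed intracellular domain joins the DNA-binding protein RBPJ to switch on target genes. RNA levels are given as CPM, the read count of a gene normalised to the depth of its library after TMM scaling, and comparisons between genes as CPM per kilobase of exon.

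All 10 surface markers fell upon washout, with adjusted p-values below 0.05 in the quasi-likelihood test of edgeR, where 25.4% of the 12266 genes tested were lower and 27.0% were higher at that threshold. The log2 fold changes ran from -1.90 for Cd5 to -0.58 for Thy1, with a median of -1.23, whereas the median over all genes tested was -0.01. Of the 10 markers, 7 also passed the threshold of the study on the log2 fold change (below -1), which 11.7% of all genes tested did in this direction and 7.74% in the other. The exceptions were Cd44, Cd8a and Thy1, which lay between -0.98 and -0.58. For none of the markers did the groups overlap, and 39.1% of all genes tested had groups that did not overlap with washout the lower. Reads of the 10 genes together made up 0.268% of the counts in each GSI library and 0.124% and 0.123% in the washout libraries. In bulk RNA, fewer cells that carry a marker and less of its RNA per cell cannot be told apart. The labels do not state that the 2 libraries of a group came from separate cultures, so that the p-values measure the spread between these libraries, which may be technical.

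**Figure D1:**
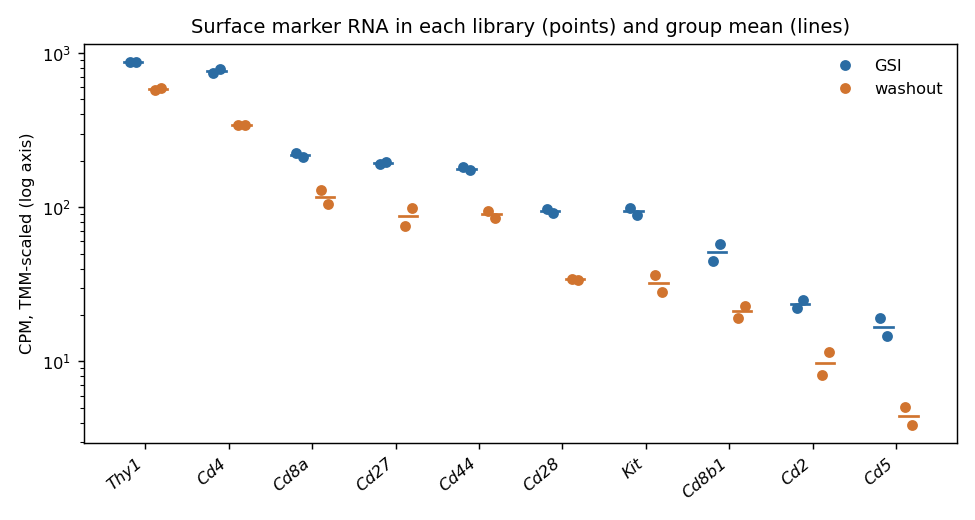
RNA level of each surface marker in CPM after TMM scaling (log axis) in the 2 GSI libraries (blue) and the 2 washout libraries (orange). Points are libraries and short lines are group means. Both orange points lie below both blue points for every marker.

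**Figure D2:**
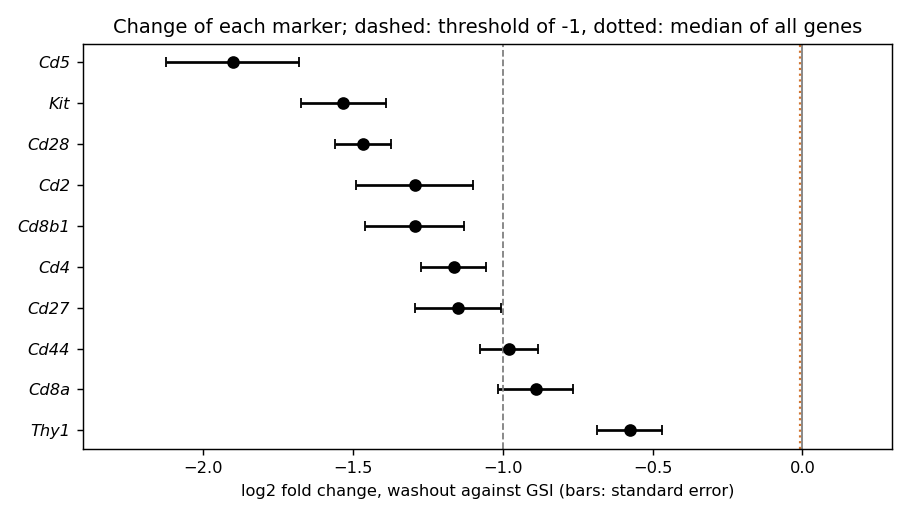
Log2 fold change of each surface marker, washout against GSI, with the standard error of the edgeR fit as bars. The dashed line marks the threshold of -1 and the dotted line the median of all genes tested (-0.01). Cd5 lies farthest to the left at -1.90 and Thy1 nearest to 0 at -0.58.

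The libraries differed in depth, with 29671401 and 13716199 counts in the GSI group and 36364200 and 14451995 in the washout group. Log2 CPM values correlated across genes with r = 0.990 and 0.988 within the groups and between 0.935 and 0.947 across them. The T lineage identity given by the labels was checked with 14 genes, all of which were tested. Their summed level was between 6758 and 7261 CPM in GSI and between 6684 and 6845 CPM upon washout. Rag1 made up the largest part, going from 1764 and 2368 CPM to 2766 and 2555 CPM, and was not called (adjusted p = 0.139). Of the 14, 3 were higher and 5 lower, beside 27.0% higher and 25.4% lower among all genes tested. Those higher were Cd3g, Ptcra and Rag2, and those lower were Cd247, Bcl11b, Tcf7, Gata3 and Themis. The similar sums therefore do not mean that the single genes were unchanged. Genes listed as markers of other cell types were lower in sum upon washout. The mast cell list gave 77.6 to 176 CPM in GSI and 2.23 to 9.37 CPM upon washout, nearly all of it Cpa3, a mast cell protease that early lymphoid progenitors are also known to carry, and 8 of its 10 genes had at most 3 counts in every library, among them Fcer1a, Ms4a2 and Gata2. The NK and innate lymphoid list gave 1944 to 2807 CPM in GSI and 326 to 415 CPM upon washout, most of it the granzyme gene Gzma, and 6 of 11 genes, including Ncr1, Klrb1c and Klrk1, had at most 3 counts in every library. Myeloid genes summed to 41.8 to 53.7 CPM and 12.8 to 13.2 CPM in GSI and washout, mainly through the integrin gene Itgam, while Cd68, the other myeloid gene tested, rose with a log2 fold change of 0.98 (4 of 10 at most 3 counts). Stromal and epithelial genes summed to 178 to 225 CPM and 66.7 to 68.8 CPM, mainly through Pecam1 (6 of 10 at most 3 counts). B cell genes gave 5.96 to 9.10 CPM and 2.01 to 3.26 CPM (5 of the 8 found, including Pax5, at most 3 counts), and erythroid and megakaryocyte genes 13.2 to 14.8 CPM and 7.29 to 7.43 CPM (5 of 8 at most 3 counts). The part of these genes in the fall of the surface markers was not tested.

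The coreceptors come first. Cd4, which binds MHC class II molecules and brings the kinase Lck to the T-cell receptor, had 737 and 791 CPM in the GSI libraries and 340 and 342 CPM in the washout libraries. Both washout libraries lay below both GSI libraries, and the level was 2.24-fold lower (log2 fold change -1.16 ± 0.109 SE, adjusted p = 0.000581). The gene lies on the minus strand at chr6:124814710-124838239 (mm9) and has 11 exon blocks.

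Cd8a and Cd8b1 encode the chains of the coreceptor for MHC class I and are neighbours on the plus strand of chromosome 6, at chr6:71323421-71329165 and chr6:71272830-71287471, 35950 bases apart. Cd8a was at 225 and 210 CPM in GSI and at 129 and 105 CPM upon washout. Cd8b1 was at 45.0 and 58.0 CPM in GSI and at 19.1 and 23.0 CPM upon washout. Both chains were thus lower in both washout libraries, and the washout replicates of Cd8a differed more from each other than those of Cd4 did. The log2 fold change was -0.89 ± 0.126 for Cd8a (adjusted p = 0.00204) and -1.29 ± 0.166 for Cd8b1 (adjusted p = 0.00144).

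Because each library yields its own ratio, the balance of the coreceptors does not depend on the scaling between libraries. The count of Cd8a divided by that of Cd8b1, each per kilobase of exon, was 2.27 and 1.64 in GSI and 3.07 and 2.07 upon washout, so that the groups overlapped. The corresponding ratio of Cd4 to Cd8a was 2.54 and 2.92 in GSI and 2.04 and 2.52 upon washout. The groups did not overlap for Cd4 to Cd8a, but the nearest libraries of the groups lay closer together (2.52 and 2.54) than the replicates of either group. These ratios were not tested, since the smallest p that a two-sided exact permutation test of 2 libraries against 2 can give is 0.333.

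Markers of early progenitors fell as well. Kit, the receptor tyrosine kinase for stem cell factor, was at 98.8 and 89.3 CPM in GSI and at 36.3 and 28.3 CPM upon washout, which was 2.89-fold lower (log2 fold change -1.53 ± 0.142, adjusted p = 0.000568). Cd44, which binds hyaluronan and is lost as progenitors pass beyond the earliest stages, was at 181 and 174 CPM in GSI and at 94.3 and 85.6 CPM upon washout (log2 fold change -0.98 ± 0.0975, adjusted p = 0.000676). Kit lies at chr5:75970941-76052747 on the plus strand and Cd44 at chr2:102651298-102741822 on the minus strand. A U6 gene sits inside Cd44 on the other strand and shares no exon base with it. The ratio of Cd44 to Kit per kilobase was 1.56 and 1.66 in GSI and 2.21 and 2.58 upon washout, without overlap between the groups. Like the coreceptor ratios, it was not tested, for the same reason.

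Among the costimulatory receptors, Cd28, which binds Cd80 and Cd86 and adds the second signal for T-cell activation, had the smallest adjusted p-value of the 10 markers. It was at 96.8 and 91.5 CPM in GSI and at 34.2 and 33.9 CPM upon washout. Replicates were close in both groups, and the level was 2.76-fold lower (log2 fold change -1.47 ± 0.0931, adjusted p = 0.000315). Cd27, a member of the TNF receptor family that binds Cd70, was at 191 and 196 CPM in GSI and at 75.6 and 99.3 CPM upon washout (log2 fold change -1.15 ± 0.143, adjusted p = 0.00131). When the first washout library, the lower of both, was left out, Cd27 no longer passed the fold threshold, with a log2 fold change of -0.96. Cd28 lies at chr1:60773644-60830203 on the plus strand and Cd27 at chr6:125182640-125187028 on the minus strand, where Vamp1 overlaps it on the other strand without a shared exon base.

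Cd5 and Cd2 tune the strength of T-cell receptor signals. Cd5, a scavenger receptor family protein that dampens signaling, was the least abundant of the 10 and fell the most. It was at 19.0 and 14.6 CPM in GSI and at 5.02 and 3.87 CPM upon washout, with 609, 213, 171 and 52 counts behind these values, in that order. The lowest count of 52 has an exact 95% Poisson interval of 38.8 to 68.2, which covers counting error alone. Upon washout Cd5 was 3.73-fold lower (log2 fold change -1.90 ± 0.222, adjusted p = 0.00107). Cd2, an adhesion receptor that binds Cd48 in mice, was at 22.3 and 25.1 CPM in GSI and at 8.14 and 11.5 CPM upon washout (log2 fold change -1.29 ± 0.196, adjusted p = 0.0026). Their positions were chr19:10792633-10813464 for Cd5 and chr3:101079822-101091862 for Cd2, both on the minus strand.

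Thy1, the GPI-anchored glycoprotein present on T-lineage cells throughout the thymus, changed the least. It was at 871 and 874 CPM in GSI and at 577 and 593 CPM upon washout, at chr9:43851467-43856662 on the plus strand. The difference of 1.49-fold was still larger than the spread between replicates (log2 fold change -0.58 ± 0.109, adjusted p = 0.0061). Among all genes tested, 24.0% had a lower log2 fold change than Thy1, and 4.12% had a lower one than Cd5.

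Next, the levels were compared between genes per kilobase of exon. In GSI, Thy1 led with a mean of 503 CPM per kilobase, above 99.2% of the genes tested with a known length, followed by Cd4 (190), Cd27 (83.1), Cd8a (69.6), Cd8b1 (36.3), Cd44 (25.9), Kit (16.1), Cd28 (15.4), Cd2 (13.6) and Cd5 (8.13). Kit and Cd28 overlapped between replicates, whereas all other neighbours in this order were separate. Upon washout the order began with Thy1 (337 CPM per kilobase), Cd4 (84.6), Cd27 (37.6), Cd8a (37.5), Cd8b1 (14.9) and Cd44 (13.1) and ended with Cd2 (5.63), Cd28 (5.57), Kit (5.54) and Cd5 (2.15). Here Cd27 overlapped with Cd8a, Cd8b1 with Cd44, Cd2 with Cd28, and Cd28 with Kit. Cd5 was lowest and Thy1 and Cd4 highest in both groups. Relative to the other genes, Cd28 moved from the 64.0th to the 36.5th percentile of the level per kilobase, and Thy1 from the 99.2nd to the 98.6th.

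**Figure D3:**
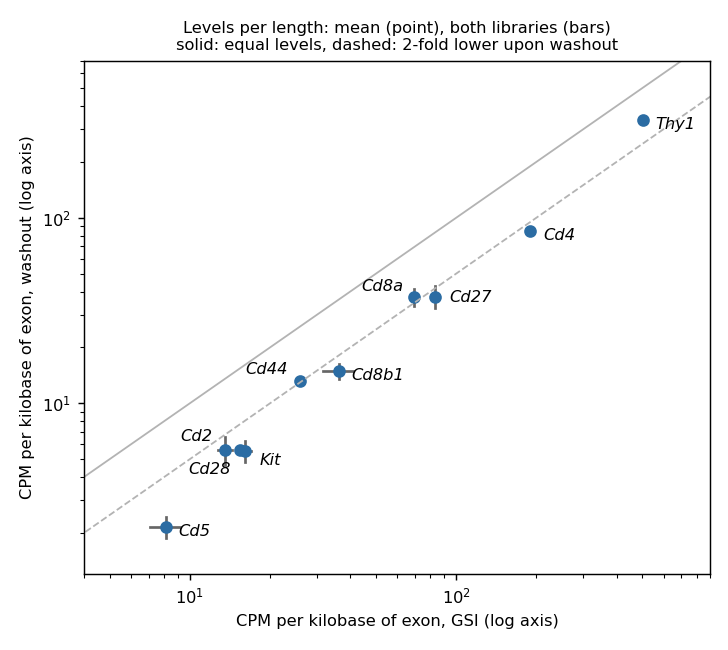
Mean level of each surface marker per kilobase of exon in GSI (horizontal axis) and upon washout (vertical axis), both on log axes in CPM per kilobase, with bars that span both libraries of a group. The solid line marks equal levels and the dashed line a 2-fold lower level upon washout. All 10 markers lie below the solid line, and Thy1, Cd8a and Cd44 lie above the dashed one.

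The region before the start of the gene was printed for the markers with a RefSeq promoter window (GRCm38.p6), which 5 of the 10 genes had, namely Cd44, Kit, Cd8a, Cd27 and Cd5. Cd4, Cd8b1, Cd2, Thy1 and Cd28 are named only. Since RBPJ is the DNA-binding partner of activated Notch, its canonical hexamer TGGGAA was searched on both strands in the 250 bases before each start. It occurred in 3 of these 5 genes, whereas 21.6% of all 32851 windows of this length held it. Genes and windows are different units here, since a gene such as Kit can have several windows. Cd44 had 2 matches, which began 207 and 179 bases before the start, Cd8a 1 match at 89 bases and Cd5 1 match at 215 bases. The windows of Kit and Cd27 held none. A match is a description of the letters and not a bound site. Shown here are the 3 windows with a match, and Kit, the marker with the largest fall among those with a window but no match. The sequences run 5′ to 3′ on the strand of the gene, with each match in capitals as TGGGAA or, on the other strand, TTCCCA. The windows are chr19:10738975-10739224 (minus strand) for Cd5, chr6:71373177-71373426 (plus strand) for Cd8a, chr2:102901666-102901915 (minus strand) for Cd44 and chr5:75574737-75574986 (plus strand) for Kit.
Cd5: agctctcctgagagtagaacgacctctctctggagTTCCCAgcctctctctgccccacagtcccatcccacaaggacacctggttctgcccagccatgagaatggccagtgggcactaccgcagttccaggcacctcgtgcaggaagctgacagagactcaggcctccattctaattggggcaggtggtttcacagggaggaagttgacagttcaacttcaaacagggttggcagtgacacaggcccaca
Cd8a: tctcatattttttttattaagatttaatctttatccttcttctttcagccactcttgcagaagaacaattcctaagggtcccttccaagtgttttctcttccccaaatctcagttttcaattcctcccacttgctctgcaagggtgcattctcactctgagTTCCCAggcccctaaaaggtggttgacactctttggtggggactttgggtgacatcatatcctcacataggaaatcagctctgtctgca
Cd44: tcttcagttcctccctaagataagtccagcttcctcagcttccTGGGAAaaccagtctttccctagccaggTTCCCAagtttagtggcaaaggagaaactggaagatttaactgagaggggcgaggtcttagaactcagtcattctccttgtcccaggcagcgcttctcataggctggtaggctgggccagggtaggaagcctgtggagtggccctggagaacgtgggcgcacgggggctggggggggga
Kit: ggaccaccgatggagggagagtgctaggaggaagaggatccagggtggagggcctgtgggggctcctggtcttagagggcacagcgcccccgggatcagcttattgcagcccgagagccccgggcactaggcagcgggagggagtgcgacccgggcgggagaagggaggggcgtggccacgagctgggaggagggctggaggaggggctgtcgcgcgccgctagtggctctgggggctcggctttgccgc
Cd5, Cd8a and Cd44, which held the hexamer, had log2 fold changes of -1.90, -0.89 and -0.98, and Kit and Cd27, which did not, had -1.53 and -1.15. The ranges overlapped, and no test was made over 5 genes.

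To place the 10 markers among related genes, 5 lists were examined, which share some genes. Their calls are given beside all genes tested, of which 25.4% were lower and 27.0% higher. Of 24 further thymocyte stage markers, 20 were tested, of which 6 rose, 6 fell and 8 did not pass, with a median log2 fold change of -0.10. Without the first GSI library 3 of them fell. Il2ra, which encodes the interleukin-2 receptor α chain, went from 1.44 and 1.51 CPM under GSI to 12.4 and 14.6 CPM after washout (log2 fold change 3.19, adjusted p = 0.000343). Ptcra, the invariant α chain of the pre-T-cell receptor, was at 47.1 and 54.4 CPM in GSI and at 249 and 276 CPM upon washout (log2 fold change 2.37, adjusted p = 0.000281). Both rose while all 10 markers fell. In the other direction, the chemokine receptor gene Ccr9 went from 280 and 247 CPM to 30.3 and 17.8 CPM (log2 fold change -3.43, adjusted p = 0.000345). Ly6a, which encodes the progenitor antigen Sca-1, fell by 2.66 on the log2 scale, from 69.4 and 75.7 CPM to 11.3 and 11.7 CPM. Among the chains of the CD3 complex in this list, Cd3g rose (log2 fold change 0.86, adjusted p = 0.00122) and Cd247 fell (log2 fold change -0.73, adjusted p = 0.00145), and Cd3d and Cd3e had log2 fold changes of 0.14 and -0.13 that did not pass (adjusted p = 0.414 and 0.307). With scaling to total counts they were -0.06 and -0.33, and Cd3e then fell (adjusted p = 0.0313). Cd3e also fell with a correction for GC content and length, at -0.30 (adjusted p = 0.0182), and with that and a replicate block, at -0.31 (adjusted p = 0.00113). These CD3 chains were named after their values were seen.

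Structural relatives of the markers, which belong to the same protein families or share only the GPI anchor of Thy1, were mostly lower. Ly6a, Ly6c1, Ly6e, Cd24a and Cd52 were those with the anchor only. Of the 29 genes listed, 19 were tested. Beside 25.4% lower and 27.0% higher among all genes tested, 12 fell, 3 rose and 4 did not pass (median log2 fold change -0.85). Without the first GSI library 1 rose. Pdcd1, an inhibitory receptor of the Cd28 family, was at 4.13 and 3.50 CPM in GSI and at 0.500 and 0.893 CPM upon washout (log2 fold change -2.56, adjusted p = 0.00228). Ctla4, which competes with Cd28 for its ligands, went the other way, from 0.813 and 1.10 CPM to 2.44 and 3.80 CPM (log2 fold change 1.71, adjusted p = 0.0105). Cd28 and Ctla4 thus differed in sign. Without the first GSI library Ctla4 had a log2 fold change of 1.46 and an adjusted p of 0.0714. Ly6c1, a GPI-anchored protein like Thy1, was at 117 and 139 CPM in GSI and at 11.4 and 13.5 CPM upon washout (log2 fold change -3.38, adjusted p = 0.000281). Ly6a and Ly6c1 belong to a family of close copies among which reads can be misassigned, so that their values are uncertain.

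Of 18 genes for ligands of the markers, 10 were tested, and 4 fell, 2 rose and 4 did not pass, with a median log2 fold change of -0.77. The shares over all genes tested were 25.4% lower and 27.0% higher. The genes for the main ligands of Kit, Cd27 and Cd28 were at or near 0: Kitl had 1 count in 1 library and 0 in the others, Cd70 and Cd86 had 0 counts in all 4, and Cd80 had 1, 1, 6 and 2 counts. A count of 0 allows up to 3 counts, or 0.0881 to 0.223 CPM depending on the library. The MHC class II gene H2-Ab1, a ligand of Cd4, was at 20.4 and 11.2 CPM in GSI and at 2.79 and 1.34 CPM upon washout (log2 fold change -2.85, adjusted p = 0.00223). H2-T3, the thymus leukemia antigen bound by Cd8a, was at 0.375 and 0.548 CPM in GSI and at 2.03 and 4.02 CPM upon washout (log2 fold change 2.71, adjusted p = 0.00523). The H2 genes also have close copies, and their values are uncertain for the same reason.

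The RNAs of proteins that act with the markers inside the cell had shares of calls near those of all genes. Of 30 genes for cytoplasmic partners, 28 were tested, and 9 fell, 6 rose and 13 did not pass, with a median log2 fold change of -0.05, beside 25.4% lower and 27.0% higher among all genes tested. These counts depended on the fit, since 3 fell without the second GSI library, 3 rose without the first one, and 11 rose with a replicate block or with a correction for GC content and length. Lck, the kinase bound by Cd4 and Cd8a, was at 662 and 675 CPM in GSI and at 770 and 789 CPM upon washout and did not pass (log2 fold change 0.22, adjusted p = 0.136). Lck passed as higher with a replicate block (adjusted p = 0.0473), with the GC and length correction (0.0183) and with both (0.000593). Siva1, which binds the tail of Cd27, was at 14.1 and 14.0 CPM in GSI and at 33.7 and 38.2 CPM upon washout (log2 fold change 1.35, adjusted p = 0.000564). Pik3cd, a catalytic subunit of the PI3-kinases recruited by Cd28 and Kit, was at 3.81 and 6.44 CPM in GSI and at 0.646 and 2.16 CPM upon washout (log2 fold change -2.01, adjusted p = 0.0277). That call rested on single libraries. The log2 fold change was -1.58 (adjusted p = 0.0802) without the second GSI library and -1.21 (adjusted p = 0.057) without the first washout library. Lck was named here, after its values were seen, as the kinase shared by both coreceptors.

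Among 27 genes for transcriptional regulators of Cd4, Cd8 and other marker genes, 24 were tested, with a median log2 fold change of -0.43. Of these, 13 fell, 5 rose and 6 did not pass, beside 25.4% lower and 27.0% higher among all genes tested. Without the first GSI library 8 fell, and with scaling to total counts 3 rose. Zbtb7b, which encodes the CD4-lineage factor ThPOK, was scarce, with 47 and 15 counts in GSI and 8 and 1 counts upon washout (log2 fold change -2.77, adjusted p = 0.00634, and 0.0516 without the first GSI library). Hes1, a Notch target that represses transcription, was at 21.9 and 7.68 CPM in GSI and at 43.6 and 38.0 CPM upon washout (log2 fold change 1.42, adjusted p = 0.0282). The replicates of Hes1 in GSI were far apart. Its log2 fold change was 2.41 without the first GSI library and 0.92 without the second, and with DESeq2 it was 1.48 with an adjusted p of 0.0732. Notch1 itself rose from 506 and 637 CPM to 1184 and 1332 CPM (log2 fold change 1.14, adjusted p = 0.0018). Runx3, a silencer of Cd4 in the CD8 lineage, fell from 20.2 and 19.0 CPM to 5.79 and 7.14 CPM (log2 fold change -1.62, adjusted p = 0.000786), and Gata3, a regulator of early T-cell and CD4-lineage development, from 262 and 208 CPM to 75.8 and 71.7 CPM (log2 fold change -1.67, adjusted p = 0.000438). Notch1, Runx3 and Gata3 were chosen after their values were seen.

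**Figure D4:**
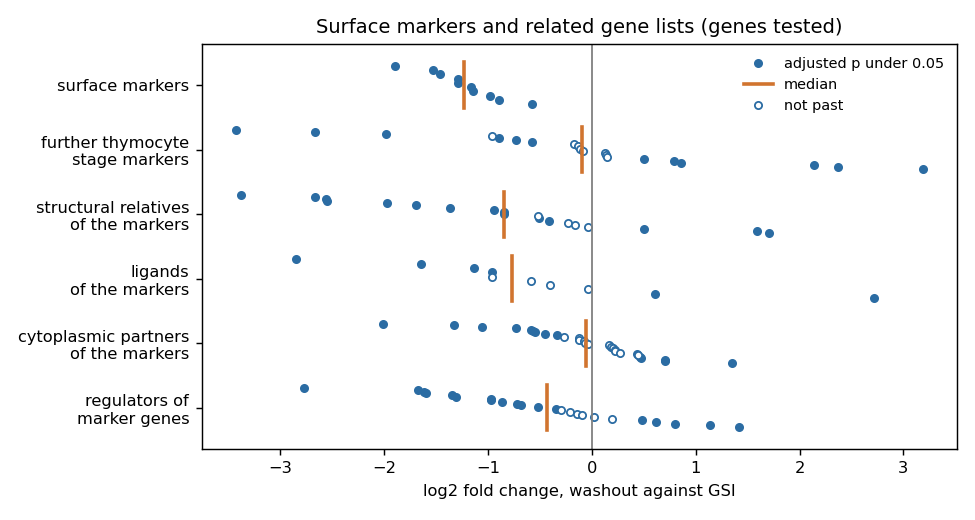
Log2 fold change, washout against GSI, of the 10 surface markers and of the tested genes of 5 related lists, 1 point a gene. Filled points have an adjusted p below 0.05, open points do not, and orange lines are medians. All 10 markers lie below 0, with a median of -1.23, whereas each of the other lists holds genes on both sides.

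Finally, the nearest tested gene on either side of each marker was examined within 200000 bases (mm9), which 9 of the 10 markers had and Kit had not. Genes that overlap a marker, such as Vamp1 at Cd27, and symbols without a single annotated gene were not considered. Of 14 distinct neighbours, 9 fell, 3 rose and 2 did not pass, with a median log2 fold change of -0.63. Among them, Cd6, Lag3 and Ctla4 were also counted with the structural relatives. For all genes tested the shares were 25.4% lower and 27.0% higher. Near Cd4, Gpr162 (775 bases away) and Lag3 (16140 bases away), an inhibitory relative of Cd4, fell with log2 fold changes of -0.96 and -1.37. Near Cd5, its paralog Cd6 fell from 9.22 and 5.14 CPM to 2.79 and 1.49 CPM (log2 fold change -1.70, adjusted p = 0.0139), whereas Vps37c, only 3724 bases from Cd5, was at 24.5 and 25.0 CPM in GSI and at 22.3 and 25.2 CPM upon washout (log2 fold change -0.06, adjusted p = 0.689). On the Cd8 locus, Rmnd5a beyond Cd8a fell by 0.57 on the log2 scale, and Smyd1 beside Cd8b1 had at most 21 counts a library and did not pass. At the locus shared by Cd28 and Ctla4, Raph1 on the far side of Cd28 fell with a log2 fold change of -1.58, so that Cd28 and Raph1 were lower and Ctla4, 113641 bases away, was higher upon washout.

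The other neighbours were Tapbpl and Tuba3a near Cd27 (log2 fold changes -0.69 and -1.82), Ptgfrn and Igsf3 near Cd2 (-0.94 and -0.51), Pdhx near Cd44 (0.57) and Rnf26 near Thy1 (0.34). Pdhx, a subunit gene of the pyruvate dehydrogenase complex, was higher in both washout libraries (47.2 and 47.0 CPM) than in GSI (32.0 and 31.6 CPM). The calls of several neighbours were not stable. Tuba3a had at most 14 counts in a library and an adjusted p of 0.282 with DESeq2, Rnf26 had 0.314 with scaling to total counts, and Igsf3 had 0.108 after correction for GC content and length. Cd6 had 0.0754 without the first GSI library, and Lag3 had 0.0824 without the second GSI library and 0.0965 without the first washout library. Without the first GSI library Rmnd5a had an adjusted p of 0.0666 and Ptgfrn of 0.0593. The log2 fold change of Raph1 was -2.46 without the first washout library.

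**Figure D5:**
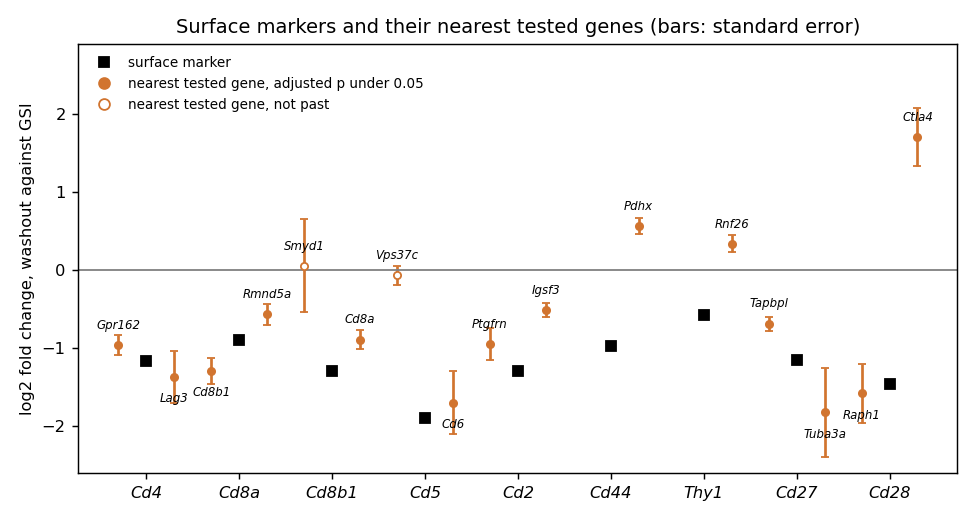
Log2 fold change, washout against GSI, of 9 surface markers (black squares) and of the nearest tested genes on either side that do not overlap them (orange, with standard errors). Open points did not pass an adjusted p of 0.05. Pdhx, Rnf26 and Ctla4 lie above 0 beside markers that lie below it.

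The scale between libraries touches all of these values. With scaling to total counts in place of TMM, the median log2 fold change over all genes tested was -0.21, the markers ran from -2.10 to -0.78 with a median of -1.43, and all 10 still fell. Of the genes past both thresholds, 39.8% were higher with TMM (950 higher, 1437 lower) and 23.0% with total counts (586 higher, 1963 lower). Cd8a and Cd44, close to the fold threshold, passed both thresholds with total counts, at -1.09 and -1.18.

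Each library was also left out in turn. The log2 fold change of Cd5 then lay between -2.12 and -1.70, that of Cd2 between -1.52 and -1.04, that of Kit between -1.73 and -1.36 and that of Cd8b1 between -1.47 and -1.09. Cd28 and Thy1 moved the least, between -1.49 and -1.43 and between -0.58 and -0.55. Cd4 stayed between -1.22 and -1.10, Cd27 between -1.34 and -0.96, Cd44 between -1.05 and -0.90 and Cd8a between -1.04 and -0.73, so that Cd27, Cd44 and Cd8a crossed the fold threshold with the choice of libraries while all 10 stayed below 0.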

How the data were processed

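RNA-Seq of Beko cells was analysed from a table of raw read counts per gene, which the authors deposited (2 GSI and 2 washout libraries). Total RNA had been prepared with a stranded, rRNA-depleting kit. Per the methods and labels, the authors used trimGalore for trimming and HISAT2 (version 2.2.1) for alignment to mm9 with 1 reported alignment per read, and counted reads over genes with summarizeOverlaps. The strand setting is not given in the sources used here. With 1 reported alignment per read, reads of close copies can be split between genes.

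Here, counts were filtered with filterByExpr (12266 of 24391 genes kept), scaled by TMM and fitted with the quasi-likelihood test of edgeR (version 4.0.16, R 4.3.3) over all 4 libraries without covariates. P-values were two-sided and adjusted by Benjamini-Hochberg over all genes tested. Thresholds followed the study, at an adjusted p of 0.05 and a log2 fold change of 1 in either direction. Fold changes carry the standard error of the fit. Positions came from GENCODE annotation of mm9 (20641 symbols matched 1 gene) and promoters from RefSeq tables of GRCm38.p6, which were not mixed. The 2 libraries of a group differed by more than counting noise (chi-square per degree of freedom 14.0 and 22.9) and were kept as 2 samples. The fit was tested on simulated data. Alternatives were DESeq2 (version 1.42.0), other scalings and filters, a test against the fold threshold, thinning to the smallest library, GC and length correction, a replicate block and each library left out.

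The 10 markers and all lists were chosen with earlier results of these data known. In each list, the gene with the largest rise and fall past the adjusted p was named, plus those beyond a log2 fold change of 2 without overlap, up to 4, and every neighbour past the adjusted p.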

Additional observations from a re-analysis of the deposited data

How the results depend on the processing

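The 10 surface markers kept their direction under all 16 alternatives, and each kept an adjusted p below 0.05 in 15 of them, the largest being 0.0451 for Thy1. The exception was the test against a log2 fold change of 1 (glmTreat), which is stricter by construction. It called 3 markers (Cd28, Cd5 and Kit), 308 genes higher and 501 lower. With the adjusted p alone, 3315 genes were higher, 3120 were lower and 10 markers were lower. With scaling to total counts 586 genes were higher and the median of the markers was -1.43. With 1 library left out, the median of the markers was -1.35 to -1.10, 7 to 8 markers passed both thresholds, and 881 to 1064 genes were higher and 1118 to 1375 lower. Of those 15 alternatives, Cd27 passed both thresholds in 14, Cd44 in 5, Cd8a in 4 and Thy1 in 0. The labels state no shared batch for equal replicate numbers, which were not taken as a pairing. Across the genes tested, the deviation of the first library from its group mean correlated between the groups with r = 0.50. The first library was also the deeper one in both groups. With a replicate block, 10 markers were lower by adjusted p, 7 passed both thresholds, their median was -1.22, and 981 genes were higher and 1576 lower. The GC and length correction covered 89.4% of the genes tested. No named gene past the adjusted p reversed. Signs turned for 3 named genes that did not pass: Cd3d to -0.059 with total counts, -0.037 with the GC and length correction and -0.045 with that and the block, Vps37c to 0.12 with that correction with or without the block, and Smyd1 to -0.12 with DESeq2 and -0.14 with total counts. With 1 library left out, Cd3d ran from -0.025 to 0.31, Vps37c from -0.13 to 0.033 and Smyd1 from -0.69 to 0.68. Of 534 values for the other named genes, 473 stayed on the same side of the threshold in the same direction, 44 lost it, 6 newly passed it and 11 were those turns of sign. List counts that moved by over 1.5 times, beyond those given beside each list, were further stage markers lower (10), partners higher (14) and regulators higher (8) with the GC and length correction and block, and ligands higher (1) with the GC and length correction or with a minimum of 10 counts in every library. The causes were not tested. Depth limits the scarce genes, such as Cd5, Zbtb7b and Tuba3a, more than the abundant ones.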
